A study of Canis lupus familiaris with 6 samples.

Results

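The genes for the proteins of the cytosolic ribosome were examined in whole blood of Beagle dogs fed with or without CPP-Se, a chelate of selenium with casein phosphopeptides. The members were the protein-coding rows of the deposited table whose symbol was RPL or RPS followed by a digit, RPLP0 or RPSA, without the RPS6K kinases, and they numbered 60 of 31512 genes. Of these, 24 carried names of the small subunit and 35 names of the large subunit. The remaining row, RPS19BP1, met the naming rule but encodes a protein that binds RPS19 and is not itself part of the ribosome. RPLP1, RPLP2, RPS19 and RPL41 had no row under these names and were not analysed here.

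All dogs were 1.5 years old. The control group ate 30 g of a snack without the chelate, and the CPP-Se group ate 30 g of a snack with 0.03% CPP-Se. Whole blood was drawn on day 30, and 1 poly(A)-enriched library was sequenced for each of 3 control dogs and 3 CPP-Se dogs. The values were FPKM, the fragments on a gene per unit of gene length and of library size, so levels can be set side by side between genes of different length. Reads on genes numbered 6598173 to 8067034 per dog. The tissue label was checked against red cell transcripts: 8 hemoglobin genes took up 36.6% to 55.9% of all reads on genes. In bulk blood, fewer cells of a type and less RNA per cell cannot be told apart.

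Ribosomal proteins assemble with ribosomal RNA into a small subunit, which reads the mRNA, and a large subunit, which joins the amino acids. Their mRNAs share a pyrimidine tract at the 5′ end through which nutrient signalling by mTOR controls their translation, and the proteins are made in matched amounts in dividing cells. In blood, immature red cells and platelets keep such mRNAs without a nucleus, and inherited loss of single ribosomal proteins causes Diamond-Blackfan anemia.

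The ribosomal protein genes were among the most abundant transcripts of blood. Mean FPKM over the 6 dogs reached 1000 in 3 members, 500 in 16, 100 in 46 and 10 in 53. Of the 100 genes with the highest mean FPKM in the table, 18 were members. The 55 members with a mean of at least 1 FPKM were tested between the groups, and their median level was 282 FPKM, against 5.11 FPKM over all 9847 genes tested. The 22 tested small-subunit genes had a median level of 422 FPKM and the 32 tested large-subunit genes one of 195 FPKM.

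RPL8, a large-subunit protein close to the peptidyl transferase centre, had the highest mean level, with 1497, 1469 and 1180 FPKM in control replicates 1, 2 and 3 and 1740, 1104 and 1766 FPKM in CPP-Se replicates 1, 2 and 3. RPS14, a small-subunit protein whose loss underlies a form of myelodysplastic syndrome, stood at 1523, 1647 and 1233 FPKM among controls and at 1394, 898 and 1891 FPKM among CPP-Se dogs. RPL13 held 1074, 1163 and 867 FPKM among controls against 955, 641 and 1430 FPKM among CPP-Se dogs. In all 3 genes the groups overlapped, CPP-Se replicate 2 was the lowest dog and CPP-Se replicate 3 the highest. RPS14 exceeded RPL8 in 4 of 6 dogs, so the order of this pair was not the same in every dog, while RPL13 lay below both in all 6.

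**Figure D1:**
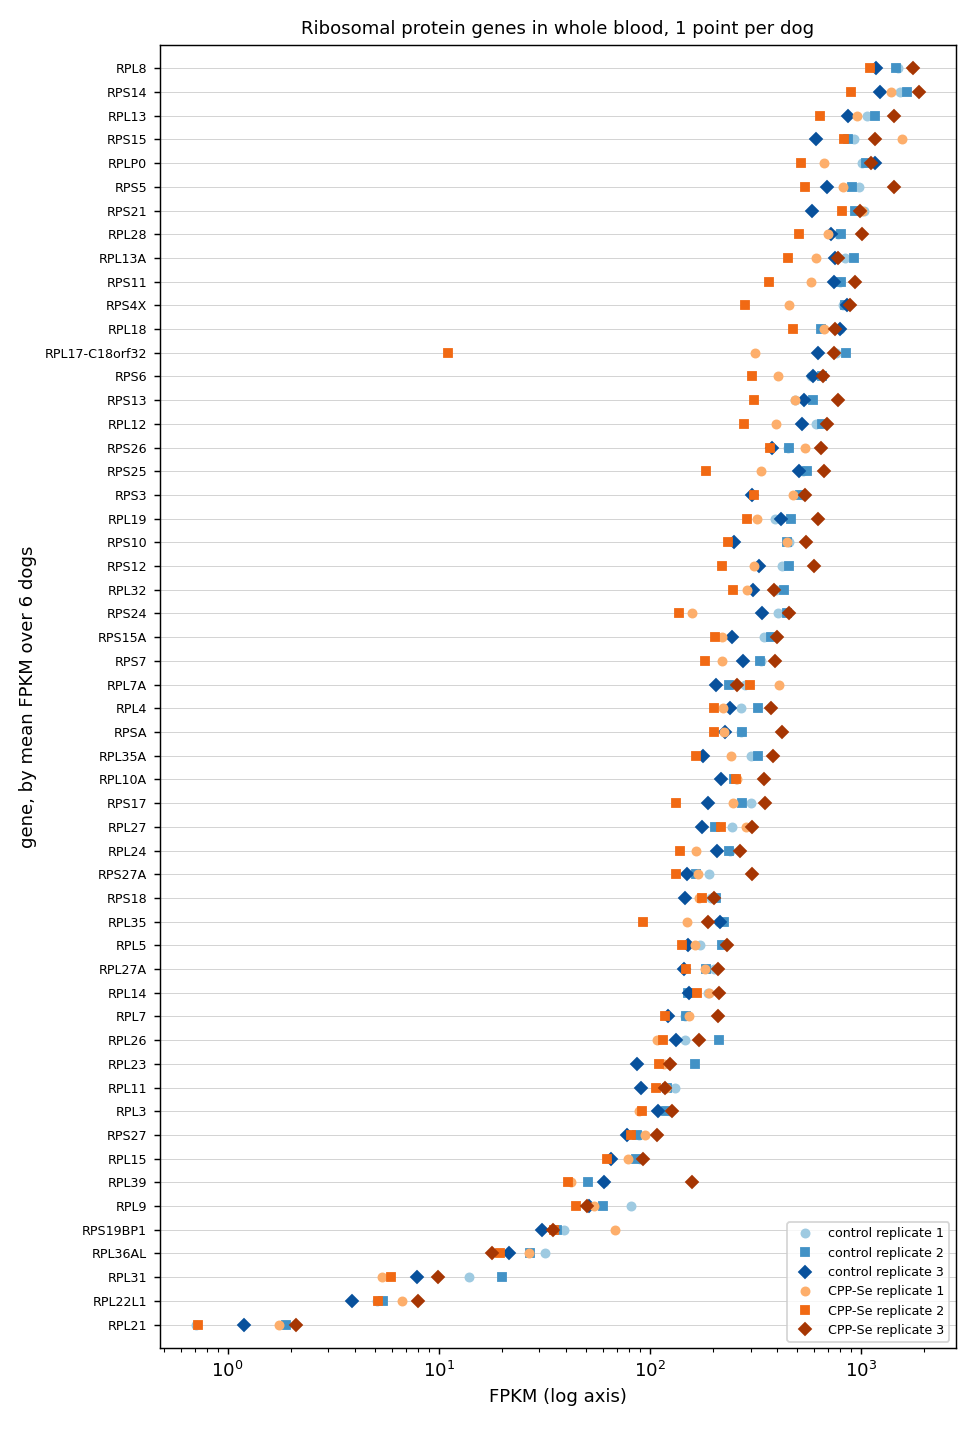
FPKM (log axis) of 54 of the 55 tested members in each of the 6 dogs, 1 point per dog, with genes ordered by their mean. Over all 55, the levels span a 1044-fold range of means, CPP-Se replicate 2 is the lowest dog in 36 genes and CPP-Se replicate 3 the highest in 37, and the lone point far to the left belongs to RPL17-C18orf32 in CPP-Se replicate 2.

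The lowest of the tested members were RPL21, RPL22L1, RPL31, RPL36AL and RPS19BP1, with means of 1.40, 5.70, 10.5, 24.2 and 40.8 FPKM. RPL22L1 and RPL36AL are second genes of the RPL22 and RPL36A families. The named rows of RPL21 and RPL36AL were a small part of what the table holds for these proteins. Genes without a symbol that the table describes as the same protein carried most of the FPKM, and the named row held 0.419% to 1.31% of the L21 total and 4.67% to 16.1% of the L36a total per dog. A low value of a named row is therefore a value of that locus and not of the protein's whole transcript pool.

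The named rows of RPL37 and RPS28 were too low to be tested. RPL37 had 1 read in control replicate 1, 1 read in CPP-Se replicate 1, 6 reads in CPP-Se replicate 3 and none in the other dogs, and RPS28 had 2 reads in CPP-Se replicate 2 alone. Unnamed genes described as L37 held 93.8, 67.8 and 45.0 FPKM among controls and 60.8, 53.5 and 75.3 FPKM among CPP-Se dogs, and the named row at most 3.61% of the L37 total per dog. RPS23, RPL3L and RPL10L were listed at 0 reads in all 6 dogs. With a floor of 3 reads per library, a 0 for RPS23 allowed up to 0.383 to 0.834 FPKM, for counting error only. RPL3L and RPL10L are second genes of the RPL3 and RPL10 families, known for expression in muscle and testis. RPL7L1, RPL26L1, RPL39L, RPS4Y1 and RPS27L were not analysed here.

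The comparison of the CPP-Se group with the control group asked whether the supplement went with a change in these transcripts. No member passed both thresholds, 0.05 for the adjusted p and 1.5 for the fold change, by limma with Benjamini-Hochberg adjustment over all genes tested, which 0.0305% of all genes passed. Adjusted p ranged from 0.296 to 0.982 over the members in this limma fit. Limma-voom on the recovered reads also called 0 members, with 1 at an unadjusted p under 0.05. In the fit on FPKM, at that unadjusted p, 0 members were higher (6.87% of all genes tested) and 2 were lower (9.10% of all genes), RPL31 and RPL35. The 6 members with a difference of at least 1.5-fold were all lower in the CPP-Se group (9.99% of all genes), and 0 were higher by as much (8.58%).

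The groups overlapped in 54 of 55 members, or 98.2%, against 77.0% of all genes tested. All CPP-Se dogs lay above all control dogs in 0 members (10.4% of all genes) and below them in 1, RPL35 (12.6% of all genes). This count depended on the scaling between dogs: with a common sum of FPKM the groups did not overlap in 11 members, or 20.0%, against 13.8% of all genes, and with a common sum without hemoglobin genes in 12, or 21.8%, against 18.3%. On the log2(FPKM + 1) scale, 21 members had higher and 34 lower values with CPP-Se, and the median log2 fold change was −0.11, against −0.00433 over all genes tested. The direction of this median turned with the scaling between dogs. With the FPKM of every dog scaled to a common sum, 33 members were higher and 22 lower and the median was 0.05, while the median of all genes moved to 0.13. Under each of the 4 other scalings tried, the median of the members lay below that of all genes tested.

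**Figure D2:**
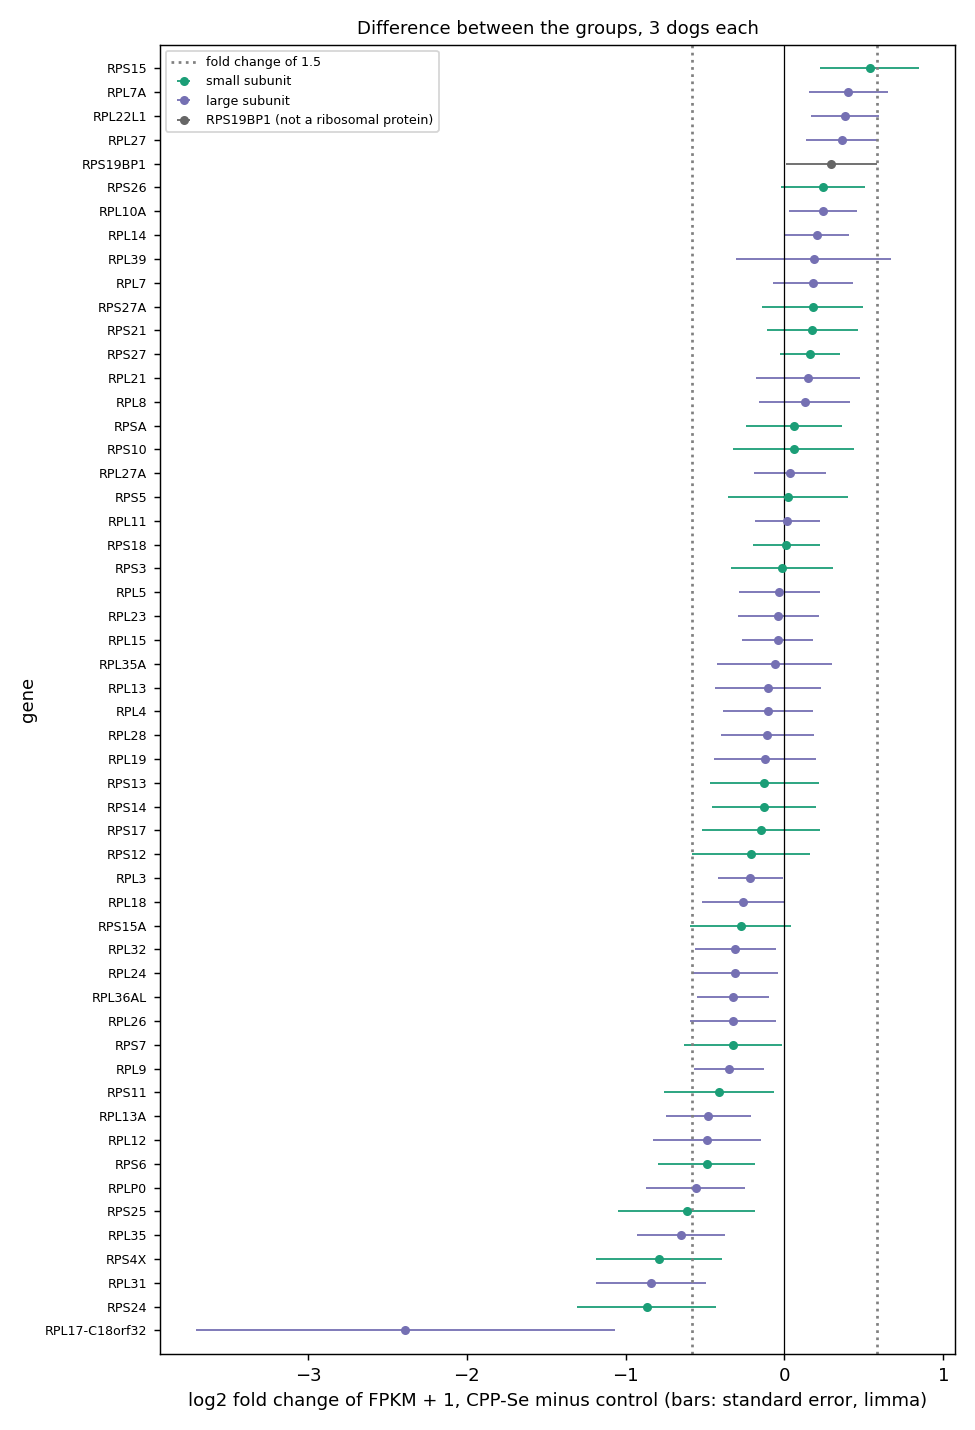
Log2 fold change of FPKM + 1 (CPP-Se minus control, 3 dogs per group) of 54 of the 55 tested members, with the standard error from limma as bars, and dotted lines at a fold change of 1.5. The points run from −2.39 in RPL17-C18orf32 to 0.54 in RPS15, 6 lie beyond the lower dotted line and 0 beyond the upper one.

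Small-subunit genes showed 9 higher and 13 lower values with a median log2 fold change of −0.13, and large-subunit genes 11 higher and 21 lower with a median of −0.10. RPS15, which sits in the head of the small subunit and takes part in its export from the nucleus, had the largest positive difference. Its values were 926, 869 and 615 FPKM among controls and 1565, 834 and 1160 FPKM among CPP-Se dogs. Replicates 1 and 3 of the CPP-Se group stood above every control dog, and replicate 2 lay within the control range. The log2 fold change was 0.54 with a standard error of 0.31 and an adjusted p of 0.444 by limma with Benjamini-Hochberg adjustment. The locus (chromosome 20, 57406545 to 57413421, minus strand, in the dog genome of Ensembl release 100) overlapped 3 other genes with at least 1 FPKM.

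RPS24, a gene mutated in Diamond-Blackfan anemia, differed in the other direction. The control dogs had 405, 446 and 338 FPKM and the CPP-Se dogs 159, 138 and 455 FPKM. CPP-Se replicates 1 and 2 were below every control dog and replicate 3 was above them all, so the log2 fold change of −0.87 came with a standard error of 0.44 and an adjusted p of 0.382 by limma. RPS24 lies on chromosome 4, 27877075 to 27908806, plus strand. The named row held 44.1% to 59.0% of the S24 FPKM per dog. With unnamed genes of the same description added, the log2 fold change was −0.80 with a standard error of 0.41.

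RPS4X, the small-subunit protein encoded on the X chromosome (56182729 to 56296274, minus strand), had the tightest control values among the small-subunit genes, with 820, 843 and 856 FPKM. In the CPP-Se dogs the values were 456, 283 and 884 FPKM. Replicate 3 of the CPP-Se group again exceeded all the control dogs while the others lay below them. The log2 fold change was −0.79 with a standard error of 0.40, and the adjusted p by limma was 0.379. RPS25, named after its value was seen, was the sixth member beyond 1.5-fold, at −0.62 on the log2 scale with a standard error of 0.43.

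RPS6, the substrate of the S6 kinases, had 582, 655 and 593 FPKM among controls and 406, 304 and 660 FPKM among CPP-Se dogs. Its log2 fold change was −0.49 with a standard error of 0.31. RPS26, another protein linked to Diamond-Blackfan anemia, stood at 451, 458 and 381 FPKM in the control group against 543, 371 and 648 FPKM, with a log2 fold change of 0.24 and a standard error of 0.26. RPSA, which also serves as a laminin receptor precursor, and RPS27A, which is made as a fusion with ubiquitin, differed by 0.06 and 0.18 on the log2 scale, each by less than its standard error. RPS27 differed by 0.16 with a standard error of 0.19, and by −0.11 with a standard error of 0.38 when unnamed genes described as the same protein were added.

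On the large subunit, RPL35 was the single member without overlap between the groups. It is one of the proteins around the exit of the peptide tunnel and lies on chromosome 9, 58153260 to 58162327, plus strand. The control dogs had 213, 224 and 214 FPKM and the CPP-Se dogs 150, 92.7 and 188 FPKM. The mean was 217 ± 6.05 FPKM for controls against 144 ± 48.0 FPKM with CPP-Se (SD, n = 3 each). The log2 fold change was −0.65 with a standard error of 0.28, an unadjusted p of 0.047 and an adjusted p of 0.303 by limma. It was −0.37 without CPP-Se replicate 2 and −0.88 without CPP-Se replicate 3.

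RPL31, which also borders the tunnel exit, had the lowest unadjusted p of the members, 0.043 in the limma fit, but rested on few reads. The named row on chromosome 32 (29400216 to 29400593, plus strand) held 36, 48 and 24 reads among controls and 13, 30 and 23 reads among CPP-Se dogs. Its values were 14.0, 19.9 and 7.90 FPKM against 5.37, 5.95 and 9.94 FPKM, and the groups overlapped. The named row held 36.2% to 62.6% of the L31 FPKM per dog, and unnamed genes described as the same protein held the rest. The log2 fold change was −0.84 with a standard error of 0.35 for the named row and −0.82 with a standard error of 0.40 with those genes added, and the adjusted p for the named row was 0.296 by limma.

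RPLP0 forms the base of the stalk that binds elongation factors. It had 1007, 1062 and 1168 FPKM among controls and 671, 522 and 1112 FPKM among CPP-Se dogs, so that replicate 3 of the CPP-Se group lay among the control dogs and the others below them. The log2 fold change was −0.56 with a standard error of 0.31 and an adjusted p of 0.430 by limma. The named row held 54.5% to 58.7% of the P0 FPKM per dog. With unnamed genes of the same description added, the log2 fold change was −0.58 with a standard error of 0.34. RPL5 and RPL11, which join the 5S ribosomal RNA and can bind MDM2 outside the ribosome, differed by −0.03 and 0.02 on the log2 scale, with standard errors of 0.26 and 0.21. RPL3 and RPL4, which line the catalytic centre and the peptide tunnel, differed by −0.21 and −0.11, with standard errors of 0.21 and 0.28. RPL35A differed by −0.06 with a standard error of 0.36.

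The largest positive differences on the large subunit were those of RPL7A, RPL22L1 and RPL27. RPL7A had 282, 237 and 206 FPKM among controls against 410, 300 and 258 FPKM among CPP-Se dogs, a log2 fold change of 0.40 with a standard error of 0.25. RPL22L1 had 5.09, 5.44 and 3.88 FPKM against 6.68, 5.14 and 8.0 FPKM, and differed by 0.38 with a standard error of 0.21. RPL27 had 245, 203 and 177 FPKM against 285, 218 and 303 FPKM, and differed by 0.36 with a standard error of 0.23. The groups overlapped in all 3, and adjusted p by limma lay between 0.428 and 0.486. RPS19BP1 had 39.2, 36.5 and 31.0 FPKM among controls and 68.1, 35.2 and 34.6 FPKM among CPP-Se dogs, where replicate 1 alone was high, with a log2 fold change of 0.30 and a standard error of 0.28. RPL36AL differed by −0.32 with a standard error of 0.23, and RPL21 by 0.15 with a standard error of 0.33. With unnamed genes of the same description added, the values were −0.57 with a standard error of 0.41 for RPL36AL and −0.14 with a standard error of 0.36 for RPL21, whose direction turned.

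The largest difference of all belonged to RPL17, listed under the read-through name RPL17-C18orf32 on chromosome 7 (79264098 to 79268123, plus strand), and 1 dog decided it. The row had 762, 849 and 624 FPKM among controls and 314, 11 and 746 FPKM among CPP-Se dogs. The log2 fold change of −2.39 had a standard error of 1.32 and an adjusted p of 0.424 by limma. In CPP-Se replicate 2, 116 reads lay on this row, against 1585 to 4269 in the other dogs.

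An unnamed gene described as the same protein, ENSCAFG00000014751 on chromosome 14 (25825567 to 25826801), showed the reverse. It held 335, 490 and 374 reads among controls, 154 and 290 in CPP-Se replicates 1 and 3, and 3173 in CPP-Se replicate 2. The named row made up 71.1% to 79.1% of the L17 FPKM in 5 dogs and 2.60% in that dog. With the unnamed genes added, the log2 fold change of L17 was −0.74 with a standard error of 0.37 and an adjusted p of 0.374 by limma, and the remaining low dogs were CPP-Se replicates 1 and 2. Which locus these reads came from was not tested.

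**Figure D3:**
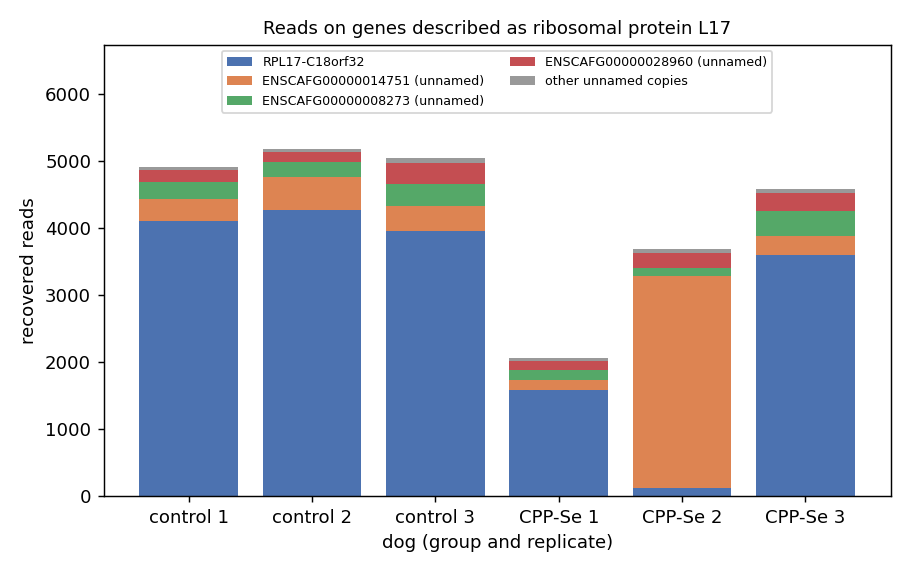
Reads recovered from FPKM on genes described as ribosomal protein L17, stacked by gene, in each of the 6 dogs. The named row RPL17-C18orf32 holds most reads in every dog except CPP-Se replicate 2, where 116 reads lie on it and 3173 on the unnamed gene ENSCAFG00000014751.

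For RPL39, a short protein inside the peptide tunnel, the difference also depended on the unnamed genes. Its named row had 60.6, 50.9 and 61.0 FPKM among controls and 42.3, 41.0 and 158 FPKM among CPP-Se dogs, with replicate 3 alone high. The named row held 7.26% to 30.6% of the L39 FPKM per dog, and the log2 fold change was 0.18 with a standard error of 0.49 for the row but −0.85 with a standard error of 0.37 for all L39 genes together. In the latter fit the adjusted p was 0.318 by limma. Of the 55 tested members, 40 had at least 1 unnamed gene of the same description with reads, and 18 overlapped another gene of at least 1 FPKM. With unnamed genes added to each member, 16 of 56 were higher and 40 lower, with a median log2 fold change of −0.12. How reads shared by several genes, or on either strand, were counted is not given in the sources used here.

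The members varied together from dog to dog. CPP-Se replicate 3 was the highest dog in 37 of 55 members, as it was in 19.4% of all genes tested. CPP-Se replicate 2 was the lowest dog in 36 of 55, as in 15.6% of all genes. Replicate 3 exceeded replicate 2 in 52 of 55 members and in 48.9% of all genes tested, with a median ratio of FPKM of 1.78 over the members and of 0.994 over all genes. The ratio reached 2 in 23 members. Among the control dogs, replicate 3 was the lowest in 45 of 55 members and in 34.7% of all genes tested.

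On the log2(FPKM + 1) scale, the median deviation of the members from their mean over the 6 dogs was 0.18, 0.21 and −0.19 among controls and −0.07, −0.49 and 0.39 among CPP-Se dogs. Over all genes tested this median lay between −0.02 and 0.01 in each dog. The spread was thus wider in the CPP-Se group. The median coefficient of variation of the members was 14.5% among controls and 34.6% among CPP-Se dogs, against 20.8% and 27.0% over all genes, and it was larger in the CPP-Se group in 46 of 55 members, against 61.3% of all genes.

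**Figure D4:**
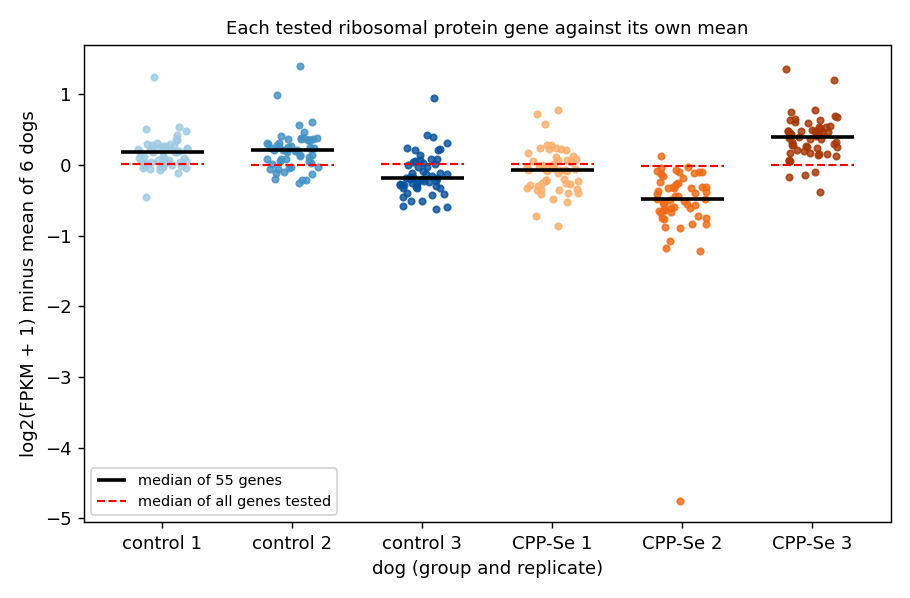
Deviation of log2(FPKM + 1) from the mean of 6 dogs for each of the 55 tested members (points), by dog, with the median of the members (black line) and of all genes tested (red dashed line). The black lines lie at −0.49 in CPP-Se replicate 2 and at 0.39 in CPP-Se replicate 3, while the red lines stay near 0 in every dog.

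Summed over the 60 members, FPKM was 23600, 24169 and 19688 among controls and 20438, 14280 and 28003 among CPP-Se dogs. The mean was 22486 ± 2439 for controls against 20907 ± 6873 with CPP-Se (SD, n = 3 each), so both the lowest and the highest sum were those of CPP-Se dogs. Part of this spread depended on the scale. As a share of all FPKM, the members held 4.96%, 4.67% and 4.29% among controls and 4.10%, 4.71% and 5.19% among CPP-Se dogs, so that CPP-Se replicate 1 was the lowest dog and replicate 2 no longer was. With the hemoglobin genes left out, the shares were 7.52%, 7.55% and 6.61% against 6.81%, 6.29% and 8.66%, and replicates 2 and 3 of the CPP-Se group were the lowest and the highest dog.

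Measures of the libraries are given beside these sums. The library size implied by the FPKM of CPP-Se replicate 2 was 1.65 times its reads on genes, against 0.882 to 1.05 times in the other dogs, and 36.6% of its reads came from hemoglobin genes, compared with 48.7% to 55.9% elsewhere. Summed FPKM of the platelet markers (5 of 10 listed genes tested) was 875, 822 and 1729 among controls and 1041, 576 and 2070 among CPP-Se dogs, lowest and highest in the same pair of dogs, while control replicate 3 had the second highest platelet sum and the second lowest sum of the members. The red cell markers summed to 8981, 13202 and 6095 FPKM among controls and to 10511, 6544 and 11296 FPKM among CPP-Se dogs, with 1 of the 17 listed genes in the table at 0 in every dog. This list was matched by symbol, and 17 of its 22 genes had a row. The 8 hemoglobin genes were found mainly by description, and most of their FPKM lies outside this sum. The part of these measures in the levels of the members was not tested.

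The group difference moved with the dogs that entered. Without CPP-Se replicate 2, the median log2 fold change of the members was 0.12, 34 of 55 were higher, and 9 had both remaining CPP-Se dogs above all control dogs (16.2% of all genes tested). Without CPP-Se replicate 3, the median was −0.37, 44 were lower, 24 had both remaining dogs below all control dogs (19.1% of all genes) and 16 were lower at an unadjusted p under 0.05 (8.92% of all genes). No member was called in either fit by limma, the first had 1 member higher at an unadjusted p under 0.05 (6.71% of all genes), and the lowest adjusted p was 0.181. Leaving out a control dog gave medians of −0.07, −0.01 and −0.22 without replicates 1, 2 and 3.

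Markers of other blood cells were read in the same way. All 8 tested monocyte markers had log2 fold changes below 0, that of CX3CR1 being −0.03 with a standard error of 0.31, with a median log2 fold change of −0.85, and their summed FPKM ran from 853 to 1002 among controls and from 413 to 488 among CPP-Se dogs. Of the neutrophil markers, 6 of 8 were lower, with a median of −0.68 and summed FPKM of 2241 to 2998 against 1743 to 2239. T cell markers had a median of 0.50 (12 of 14 higher). Most of their summed FPKM came from CD4, with 1019, 849 and 1256 FPKM among controls and 627, 796 and 613 FPKM among CPP-Se dogs, and the sum with it was 1098 to 1371 against 877 to 1050. The other 13 T cell markers summed to 178, 249 and 115 FPKM among controls and to 250, 254 and 318 FPKM among CPP-Se dogs. CD4 thus ran against the sum of the others, and the sum with it is not read as a level of T cells. Which cells the CD4 reads came from was not tested. The median was 0.62 for B cell markers (8 of 9 higher, 282 to 404 against 430 to 471 FPKM) and 0.73 for NK and cytotoxic markers (8 of 8 higher, 12.8 to 26.0 against 38.2 to 64.1 FPKM). The median of the red cell list was 0.42 (9 of 14 higher), and it was 0.64 without CPP-Se replicate 2 and −0.00303 without CPP-Se replicate 3. That of the platelet list was 0.13 (3 of 5 higher), and it was 0.62 and −0.41 without these dogs. No marker was called by limma. At an unadjusted p under 0.05 (9.10% of all genes lower, 6.87% higher), 6 monocyte, 4 neutrophil, 1 T cell and 1 red cell marker were lower, and 4 T cell, 5 B cell, 3 NK, 3 red cell and 1 neutrophil marker were higher, and the part of cell composition in the members' values was not tested.

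Because the sum differed between dogs, the members were also set relative to each other by scaling every dog to the same summed FPKM of the members. On that scale 7 members had all CPP-Se dogs above all control dogs, namely RPS15, RPS26, RPL10A, RPL27, RPS27A, RPL7 and RPL22L1 (8.47% of all genes tested). Another 10 had all CPP-Se dogs below, among them RPLP0, RPS4X, RPL17-C18orf32, RPS6, RPS24 and RPL35 (3.12% of all genes). These names were taken after their values were seen. Scaling to the members' own sum takes out variation that the members share and can add it to other genes. Over all genes tested, groups without overlap fell from 23.0% on the deposited scale to 11.6%. The shares of all genes on this scale are therefore no like-for-like baseline for the members. No member was called by limma on this scale, 1 was higher (5.66% of all genes) and 3 were lower (2.44%) at an unadjusted p under 0.05, and the lowest adjusted p of the members was 0.437.

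RPS15 made up 3.92%, 3.59% and 3.12% of the member FPKM among controls and 7.65%, 5.84% and 4.14% among CPP-Se dogs. RPS4X made up 3.47%, 3.49% and 4.35% against 2.23%, 1.98% and 3.16%. RPS24 made up 1.71%, 1.85% and 1.72% against 0.779%, 0.964% and 1.63%. The shares of RPS26 were close to each other among controls, at 1.91%, 1.89% and 1.93%, and stood at 2.65%, 2.60% and 2.32% among CPP-Se dogs. CPP-Se replicate 3 was the CPP-Se dog nearest the control dogs in each of these 4 genes. A ratio of 2 genes does not depend on the scaling between dogs, and that of RPS15 to RPS24, a pair chosen after the values were seen, was 2.29, 1.95 and 1.82 among controls and 9.82, 6.06 and 2.55 among CPP-Se dogs. Only the named rows entered this ratio, and that of RPS24 held 44.1% to 59.0% of the S24 FPKM per dog, least in CPP-Se replicate 1.

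**Figure D5:**
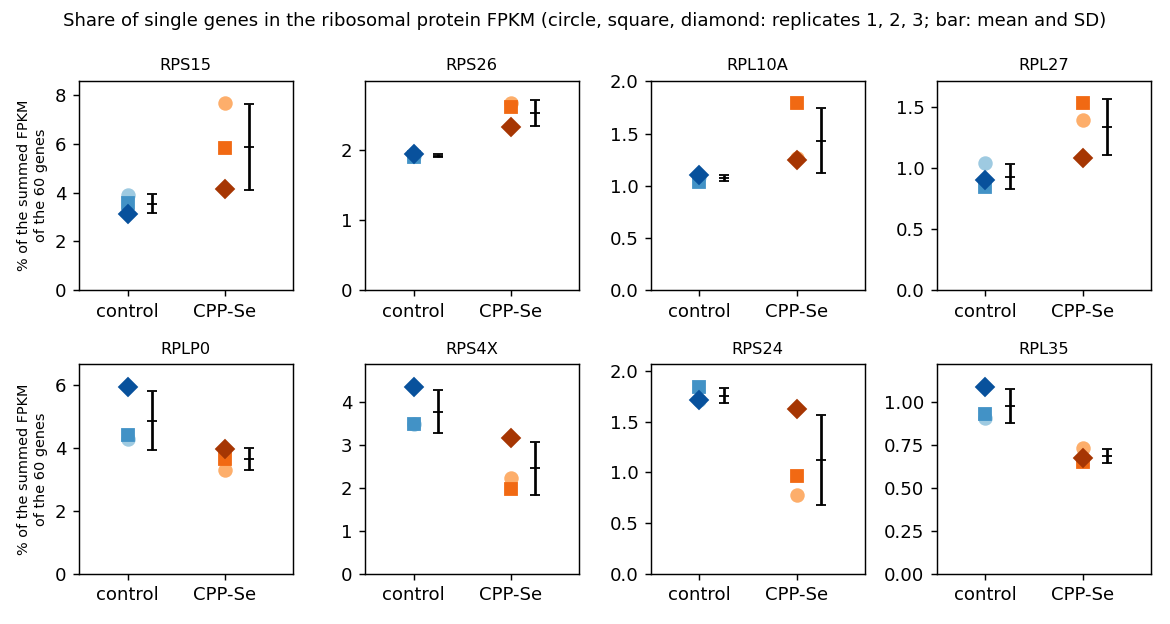
Share of 8 single genes in the summed FPKM of the 60 members (percent, axis from 0) in each dog of the control and CPP-Se groups, with the mean and SD of 3 dogs beside the points. In the upper row (RPS15, RPS26, RPL10A, RPL27) every CPP-Se dog lies above the control dogs and in the lower row (RPLP0, RPS4X, RPS24, RPL35) every CPP-Se dog lies below them, which is how these genes were picked.

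Ribosomal proteins outside the RPL and RPS names were read beside the members. FAU, which encodes a small-subunit protein fused to a ubiquitin-like domain, had 974, 984 and 757 FPKM among controls and 1266, 850 and 920 FPKM among CPP-Se dogs. RACK1, a scaffold on the small subunit, had 253, 244 and 232 FPKM against 322, 198 and 367 FPKM. The groups overlapped in both, and the log2 fold changes were 0.15 and 0.24 with standard errors of 0.26 and 0.27.

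Among the elongation factors and their partners, 3 of 7 tested genes were higher and 4 lower, with a median log2 fold change of −0.03. TPT1, whose mRNA carries the same 5′ tract as those of ribosomal proteins, had 5460, 6261 and 5711 FPKM among controls and 2900, 1742 and 4990 FPKM among CPP-Se dogs. All CPP-Se dogs lay below all control dogs, and the log2 fold change was −0.98 with a standard error of 0.41 and an adjusted p of 0.302 by limma. EEF2, the translocation factor, had 439, 484 and 442 FPKM against 331, 301 and 434 FPKM, also without overlap, and differed by −0.37 with a standard error of 0.22. Both were thus lower in each CPP-Se dog, with replicate 3 nearest to the control dogs. Of the initiation factors, 15 of 35 were higher and 20 lower, with a median of −0.06, and EIF2B3 had the largest positive value, 0.70 with a standard error of 0.33. With a common sum of FPKM the medians of both lists were positive, 0.11 for elongation and 0.09 for initiation, as was that of the members, and all 3 lay below the median of all genes on that scale, 0.13.

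Among the ribosome assembly and nucleolar factors, 26 of 35 genes were higher and 9 lower, with a median log2 fold change of 0.27, which stayed between 0.19 and 0.36 with a common sum of FPKM and without CPP-Se replicate 2 or 3. In 10 of them, or 28.6%, all CPP-Se dogs lay above all control dogs, as in 10.4% of all genes tested. POLR1C, a subunit of RNA polymerases I and III, had the largest positive value of the translation lists, 0.78 with a standard error of 0.51, from 2.78, 1.91 and 0.378 FPKM among controls and 7.24, 1.60 and 2.61 FPKM among CPP-Se dogs. RRP9, DKC1 and NOP14 were higher at an unadjusted p under 0.05, and their lowest adjusted p was 0.212 by limma. These 3 genes were chosen for that p after it was seen.

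In the list of genes that control ribosomal protein mRNA and the S6 kinase pathway, 12 of 23 were higher and 11 lower, with a median of 0.02. EIF4EBP2, a repressor of initiation downstream of mTOR, had the lowest value of the translation lists after TPT1, −0.60 with a standard error of 0.31, and its groups overlapped. The 3 genes of the list at an unadjusted p under 0.05, named after their values were seen, had every CPP-Se dog above every control dog. They were RPTOR, the mTOR partner that recruits substrates, at 0.70 with a standard error of 0.21, PDCD4, an inhibitor of the initiation helicase, at 0.68 with a standard error of 0.22, and MYC at 0.42 with a standard error of 0.18. Partners of the nascent chain were higher in 8 of 13, with a median of 0.09. The genes of the mitochondrial ribosome (names with MRPL or MRPS) were higher in 39 of 58 and lower in 19, with a median of 0.21, and all CPP-Se dogs lay above all control dogs in 9, or 15.5%, against the same 10.4% of all genes. On every scale and subset just named their median was positive, between 0.19 and 0.34. The difference between these lists and the cytosolic members was not tested, and no gene of any of them was called by limma. At an unadjusted p under 0.05, which 6.87% of all genes passed upward and 9.10% downward, 6 of 58 genes of the mitochondrial ribosome were higher and 1 was lower, 3 of 35 assembly factors, 3 of 23 genes of the control list and 1 of 35 initiation factors were higher, and TPT1 was lower.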

How the data were processed

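Whole blood RNA of 3 control and 3 CPP-Se dogs was analysed, grouped by the sample titles. Poly(A) RNA from a Trizol extraction went into NEBNext Ultra libraries. Per the submitters' processing notes and the study's methods, CASAVA 2.19, fastp 0.19.7, HISAT2 2.0.5, featureCounts 1.5.0-p3 and StringTie 1.3.3b were used, with the dog genome of Ensembl release 100. The authors deposited FPKM for 31512 genes, and no other unit was used. The library size behind the FPKM is not given in the sources used here.

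Multiplied by gene length, 100% of the FPKM of a library were whole multiples of a single step, within 0.01 read, and these multiples were taken as reads. Such reads are not independent molecules, so floors cover counting error only. The 9847 genes whose mean reached 1 FPKM were tested on log2(FPKM + 1) with limma 3.58.1 (lmFit, eBayes with an intensity trend) in R 4.3.3, two-sided, with Benjamini-Hochberg adjustment over all of them. Fold changes on this scale understate those of low genes. Called genes had to pass 0.05 for the adjusted p and 1.5 for the fold change. Tables were made in Python 3.11.15 with numpy 2.4.6 and pandas 2.3.3, and figures with matplotlib 3.10.9. The test was tested on simulated data.

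The members and gene lists were chosen with earlier results of these data known. Genes named were the 5 highest and 5 lowest tested members by mean FPKM, the 5 largest differences in each direction, a list of members by role, second genes of a family, RPS19BP1, and from the other lists called genes and the 2 largest differences in each direction. Other names were chosen after their values were seen. A few genes under this rule are not reported here. Unnamed genes were matched to members by the description in the table. Alternatives were another pseudocount (0.1), other filters, other scalings, eBayes without a trend, a replicate block, limma-voom on the recovered reads, unnamed genes added, each dog left out in turn, and other thresholds. The p-values measure the spread between 3 dogs per group.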

Additional observations from a re-analysis of the deposited data

How the results depend on the processing

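No member was called under any of the alternatives, and the median log2 fold change and the summed FPKM moved by less than the spread between dogs. For the median this spread was an SD of 0.33, in which CPP-Se replicates 2 and 3 lay furthest out. The sign of the median was not stable, with 0.12 without CPP-Se replicate 2 and −0.37 without CPP-Se replicate 3. The number of members with an unadjusted p under 0.05, 2 as reported (16.0% of all genes tested), was 1 with no filter (11.2%), 3 with a common sum of FPKM (9.34%), 1 with a common sum without hemoglobin genes (12.9%), 4 with a common sum of the members (8.09%), 1 with limma-voom (16.1%), 1 with unnamed genes added (16.0%), and 0 to 16 with 1 dog left out (9.86% to 16.7%), where 16 was without CPP-Se replicate 3. The number of members whose groups did not overlap, 1 as reported (23.0% of all genes), was 11 with a common sum of FPKM (13.8%), 12 without hemoglobin genes (18.3%), 2 with median of ratios (23.1%), 17 with a common sum of the members (11.6%), 2 with unnamed genes added (23.1%), and 3 to 25 with 1 dog left out (29.7% to 36.3%), where 25 was without CPP-Se replicate 3. With the replicate block, 0 members had an unadjusted p under 0.05 (13.8% of all genes). Dogs with the same number shared only a number, with correlations of 0.016, −0.090 and −0.043 between their deviations from the group means. Over 27 named members and 485 alternatives, none reversed, taking a reversal as a change of sign with both values over their standard error, and 40 changed sign with a value under it. A member whose reported value lay under its standard error could not reverse by this rule. RPL39 was among these, and it moved from 0.18 to −0.85 with unnamed genes added. Fewer dogs, and so fewer values to overlap, belong to each leave-out. Precision is limited by 3 dogs per group and, for RPL31 and RPL21, by few reads. With the common sum of the members, the shares of all genes are no like-for-like baseline, because only the members' own sum was made equal. The cause of the other changes with scaling was not tested.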
